A study of Mus musculus with 12 samples.

Results

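The simple epithelial keratins Krt7, Krt8, Krt18 and Krt19 were followed across mouse embryonic stem (ES) cells that differed in the Polycomb genes Ring1B and Eed. The members were all genes on the array whose platform symbol was 1 of these 4 names, out of 18193 genes named by a single symbol. Krt8 was read by 3 probe sets and each of the other keratins by 1 probe set, so 6 probe sets covered the 4 genes, and all 6 passed the filter on low values. Messenger RNA had been hybridised to 12 Affymetrix mouse expression arrays, 3 biological replicates for each of 4 genotypes. The genotypes were a Ring1B/Eed double deficient line, in which Ring1B had been targeted on top of the Eed mutation, an Eed deficient line made by gene targeting, a Ring1B deficient line made by gene targeting, and wild type ES cells. The labels describe a single line per genotype, so differences between lines cannot be told apart from the effects of the mutations. They state no treatment and no age. Colony morphology had been used to judge that the cells were undifferentiated before RNA was taken.

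Keratins are intermediate filament proteins that assemble only as pairs of a type II and a type I chain. Krt8 and Krt7 are type II keratins, and Krt18 and Krt19 are type I keratins. Krt8 and Krt18 form the filaments of simple, single-layered epithelia and are among the earliest keratins of the mouse embryo, where trophectoderm and extraembryonic endoderm make them. Krt7 and Krt19 join them in ductal and other simple epithelia. Ring1B, encoded by Rnf2, is a ubiquitin ligase subunit of Polycomb repressive complex 1, and Eed belongs to the core of Polycomb repressive complex 2, which methylates histone H3 at lysine 27. Both complexes hold many developmental genes at low levels in ES cells.

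The promoters of the keratins are shown because these genes differed together between the genotypes, and because CpG-rich promoters are the usual sites of Polycomb binding in ES cells. RefSeq promoter sequences (GRCm38.p6) were found for 3 of the 4 members, and none was found for Krt19. Each stretch below is 260 bases, of which 250 lie before the annotated gene start, written 5′ to 3′ on the gene's own strand. The Krt7 stretch is chr15:101412153-101412412 on the plus strand, the Krt8 stretch chr15:102004333-102004592 on the minus strand, and the Krt18 stretch chr15:102027966-102028225 on the plus strand. Capitals mark matches, on either strand, to motifs of factors studied at keratin promoters: the AP-2 motif GCCNNNGGC, the Sp1 motif GGGCGG, the TATA motif TATAAA and the AP-1 motif TGANTCA.
Krt7: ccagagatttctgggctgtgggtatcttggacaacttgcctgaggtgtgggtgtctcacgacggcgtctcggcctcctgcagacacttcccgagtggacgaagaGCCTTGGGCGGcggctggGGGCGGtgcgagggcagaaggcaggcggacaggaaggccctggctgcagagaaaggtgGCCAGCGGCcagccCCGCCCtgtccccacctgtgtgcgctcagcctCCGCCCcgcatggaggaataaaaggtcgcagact
Krt8: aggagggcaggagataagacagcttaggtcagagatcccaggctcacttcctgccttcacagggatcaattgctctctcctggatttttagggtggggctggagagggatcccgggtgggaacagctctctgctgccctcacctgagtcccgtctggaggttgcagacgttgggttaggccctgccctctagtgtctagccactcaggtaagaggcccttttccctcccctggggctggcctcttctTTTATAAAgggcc
Krt18: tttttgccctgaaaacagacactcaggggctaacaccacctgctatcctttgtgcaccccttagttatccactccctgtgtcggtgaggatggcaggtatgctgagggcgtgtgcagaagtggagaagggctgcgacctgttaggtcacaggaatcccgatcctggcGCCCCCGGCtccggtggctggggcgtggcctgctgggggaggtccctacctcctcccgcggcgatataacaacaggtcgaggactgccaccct

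The full 300-base promoter entries, which reach 50 bases past the start, were searched on both strands. Krt7 held 21 CpG dinucleotides and Krt18 held 17, against a median of 7 over 32851 mouse promoters of the same length. Krt8 held 6. Of those promoters, 75.2% held fewer than Krt7, 68.6% fewer than Krt18 and 43.6% fewer than Krt8, so none of the 3 was extreme. The AP-2 motif occurred 2 times in Krt7, 1 time in Krt18 and 0 times in Krt8, and 16.6% of all promoters held it. The Sp1 motif occurred 4 times in Krt7, where 1 match overlaps an AP-2 match, and 0 times in Krt8 and Krt18, against 35.7% of promoters. The TATA motif matched both strands of a single stretch in Krt8, across the annotated start, and was present in 13.6% of promoters. The AP-1 motif was in none of the 3 windows and in 7.81% of promoters. These letters describe the windows and not binding.

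The deposited values were signals of the MAS5 algorithm on a linear scale, with the trimmed mean of every array at 100 and array medians between 19.07 and 28.01. No read depth exists for arrays, and the number of arrays limits the precision. Changes are given as log2 differences of (signal + 5) from a limma model of all 12 arrays, and calls were made below an adjusted p of 0.05 over 13985 genes. Rnf2 averaged 383 ± 18.8 in double deficient, 779 ± 168 in Eed deficient, 468 ± 65.7 in Ring1B deficient and 851 ± 124 in wild type cells (SD, n = 3 each). Eed averaged 71.2 ± 21.0 in double deficient, 37.8 ± 13.1 in Eed deficient, 1642 ± 283 in Ring1B deficient and 1428 ± 159 in wild type cells. The files do not say which exons were deleted, so a remaining signal does not measure functional transcript. In bulk RNA, fewer cells expressing a gene and less RNA per cell cannot be told apart.

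The replicate 2 arrays stood apart for these genes. In each of the 4 genotypes the replicate 2 array had the highest signal of all 4 keratins, a pattern shared by 1641 of the 13985 genes (11.7%). Results are therefore also given without replicate 2 of every genotype, a setting chosen after the data were seen. It keeps replicates 1 and 3 only, and it removes the array that was highest for all 4 keratins. Their spread within genotypes, and with it their p values, fall partly by construction. Calls in that setting are therefore no independent support, and the share of all genes called in it is not given.

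Loss of Eed, alone or with Ring1B, went with higher signal of all 4 keratins, and loss of Ring1B alone with higher signal of Krt8 and Krt18. Mean Krt18 signal was 8.78 times the wild type level in double deficient, 7.17 times in Eed deficient and 3.00 times in Ring1B deficient cells. For every keratin the mean signal ran, from low to high, from wild type through Ring1B deficient and Eed deficient to double deficient cells. Double deficient and Eed deficient cells did not differ beyond their spread for any of the 4.

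Krt8, the type II chain of the pair, had signals of 1869, 2865 and 2084 in double deficient, 1276, 2029 and 1811 in Eed deficient, 501, 857 and 456 in Ring1B deficient, and 142, 367 and 131 in wild type cells (replicates 1, 2 and 3). The arrays of each mutant lay above all 3 wild type arrays, with double and Eed deficient cells overlapping each other only. Krt8 was higher by 3.52 log2 units in double deficient (SE 0.34, adjusted p = 7.7e-06), by 3.11 in Eed deficient (SE 0.34, adjusted p = 4.9e-05) and by 1.59 in Ring1B deficient cells (SE 0.34, adjusted p = 0.0127). The Ring1B call ended when Ring1B deficient replicate 2 (adjusted p = 0.0516), wild type replicate 1 (0.0526) or wild type replicate 3 (0.0591) was left out. The Ring1B change was 1.77 without replicate 2 of all genotypes (adjusted p = 1.2e-04).

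The other Krt8 probe sets gave the same order. Probe set 1435989_x_at averaged 1968 ± 534 in double deficient, 1497 ± 392 in Eed deficient, 510 ± 265 in Ring1B deficient and 176 ± 133 in wild type cells (SD, n = 3 each). Probe set 1423691_x_at averaged 1928 ± 511 in double deficient, 1341 ± 353 in Eed deficient, 474 ± 187 in Ring1B deficient and 167 ± 109 in wild type cells. The x in both names marks probe sets with probes that can also match other sequences, so related transcripts may add to these signals. When all kept probe sets were fitted together, all 3 Krt8 probe sets were called higher in each mutant against wild type.

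Krt18, the type I partner of Krt8, had signals of 2224, 4044 and 2588 in double deficient, 1486, 3418 and 2321 in Eed deficient, 717, 1681 and 628 in Ring1B deficient, and 191, 621 and 196 in wild type cells. The mutant arrays again lay above every wild type array, by a small margin for Ring1B deficient replicate 3 over wild type replicate 2. Krt18 was higher by 3.30 log2 units in double deficient (SE 0.46, adjusted p = 1.4e-04) and by 2.97 in Eed deficient cells (SE 0.46, adjusted p = 7.3e-04). In Ring1B deficient cells the change was 1.66 (SE 0.46, adjusted p = 0.0430). That call was lost without double deficient replicate 1 (adjusted p = 0.0563) or 3 (0.0635), Eed deficient replicate 3 (0.0598), any of Ring1B deficient replicates 1 (0.0635), 2 (0.160) and 3 (0.0544), or wild type replicate 1 (0.151) or 3 (0.161). It was also lost in 5 other settings, and without replicate 2 of all genotypes it was 1.77 (adjusted p = 2.7e-04). With replicate number added to the limma fit, the adjusted p was 8.1e-06.

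Krt19, a type I keratin that lacks the long tail domain of its relatives, had signals of 369, 736 and 372 in double deficient, 340, 519 and 381 in Eed deficient, 159, 209 and 75.8 in Ring1B deficient, and 45.0, 131 and 55.7 in wild type cells. Every double deficient and Eed deficient array lay above every wild type array, whereas the Ring1B deficient arrays overlapped wild type. Krt19 was higher by 2.66 log2 units in double deficient (SE 0.40, adjusted p = 2.9e-04) and by 2.47 in Eed deficient cells (SE 0.40, adjusted p = 0.0011). In Ring1B deficient cells the difference was 0.93 (95% interval 0.06 to 1.79) and did not pass the test (adjusted p = 0.210). It was 1.06 without replicate 2 of all genotypes and passed (adjusted p = 0.0467). With replicate number added to the limma fit it also passed (adjusted p = 0.0068), where 9.12% of all genes were called higher.

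Krt7, the second type II chain, had the lowest signals of the group: 88.8, 219 and 141 in double deficient, 74.0, 231 and 103 in Eed deficient, 27.2, 91.0 and 31.8 in Ring1B deficient, and 10.1, 81.5 and 22.8 in wild type cells. Its spread within wild type was 8.06-fold between the highest and lowest array, and wild type replicate 1 lay at the 36.1 percentile of that array's probe sets. Only the double deficient arrays were all above every wild type array, since Eed deficient replicate 1 lay below wild type replicate 2. Krt7 was higher by 2.13 log2 units in double deficient (SE 0.59, adjusted p = 0.0151) and by 1.93 in Eed deficient cells (SE 0.59, adjusted p = 0.0419). The Eed call was lost without wild type replicate 1 (adjusted p = 0.160) or 3 (0.121), Eed deficient replicate 2 (0.145) or 3 (0.0833), Ring1B deficient replicate 3 (0.0536) or double deficient replicate 3 (0.0594), and with quantile normalization (0.0564) and 3 other settings. The double deficient call was lost without wild type replicate 1 (0.0650) or 3 (0.0530) or double deficient replicate 2 (0.0634). In Ring1B deficient cells the difference was 0.55 (95% interval -0.73 to 1.82, adjusted p = 0.678), and without wild type replicate 1 it was -0.018. Krt7 without replicate 2 of all genotypes was higher by 2.51 in double deficient and by 2.17 in Eed deficient cells, both called.

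**Figure D1:**
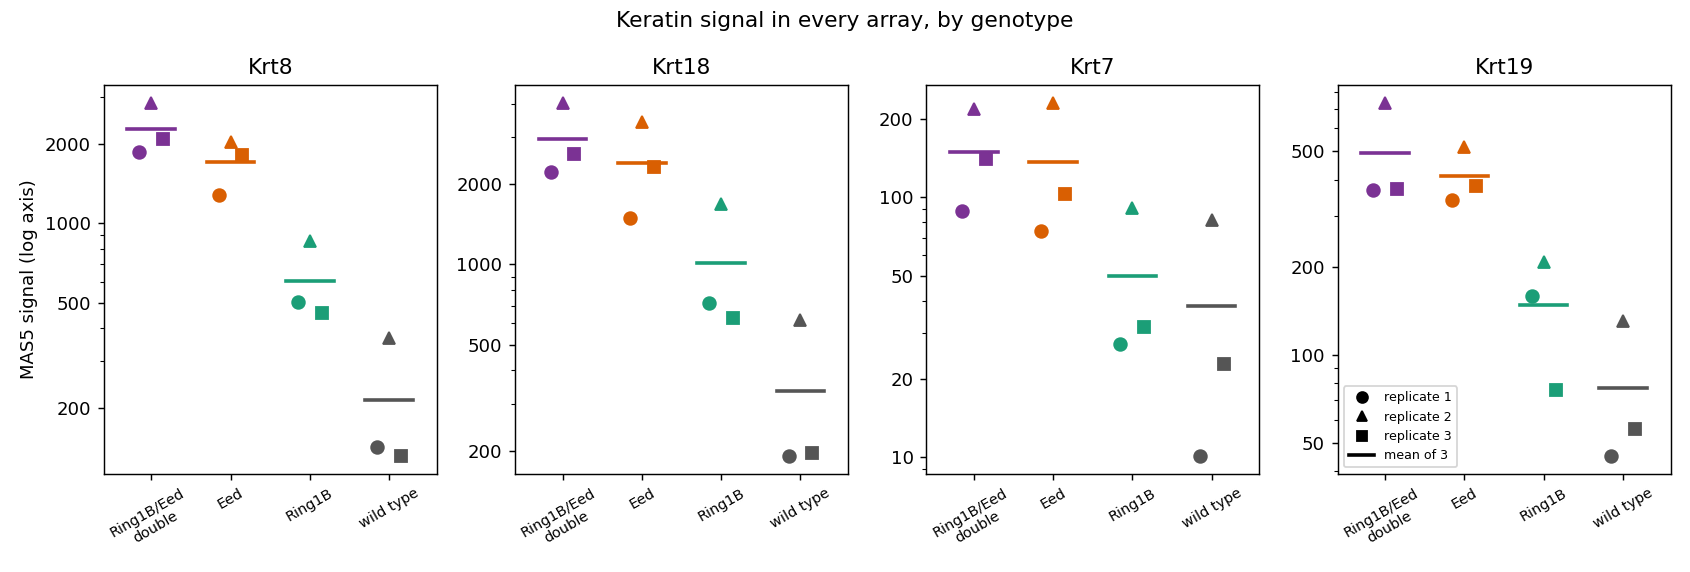
MAS5 signal (log axis, each panel with its own range) of Krt8, Krt18, Krt7 and Krt19 in the 12 arrays, by genotype. Circles, triangles and squares are replicates 1, 2 and 3 and bars are the means of 3. The triangles are highest in every genotype, and the Krt8 means are 2272 in double deficient, 1705 in Eed deficient, 605 in Ring1B deficient and 213 in wild type cells.

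Against wild type, 4 of 4 keratins were called higher in double deficient cells, where 19.5% of all tested genes were, and 4 of 4 in Eed deficient cells, where 10.8% were. In Ring1B deficient cells 2 of 4 were called higher, against 4.68% of all genes. The median keratin change was 2.98 in double deficient, 2.72 in Eed deficient and 1.26 in Ring1B deficient cells, beside all-gene medians of 0.10 in double deficient, 0.03 in Eed deficient and -0.01 in Ring1B deficient cells. All mutant arrays lay above all wild type arrays for 4 keratins in double deficient, 3 in Eed deficient and 2 in Ring1B deficient cells, as they did for 27.8% of all tested genes in double deficient, 18.6% in Eed deficient and 11.9% in Ring1B deficient cells. No keratin was called lower, and none had an unadjusted p under 0.05 in that direction. Wild type arrays are shared by the 3 comparisons.

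Eed and Ring1B dependence were compared directly. Eed deficient cells exceeded Ring1B deficient cells by 1.52 log2 units for Krt8 (95% interval 0.78 to 2.25, adjusted p = 0.0255) and by 1.54 for Krt19 (0.67 to 2.41, adjusted p = 0.0462). The difference was 1.31 for Krt18 (0.33 to 2.30, adjusted p = 0.129) and 1.38 for Krt7 (0.11 to 2.66, adjusted p = 0.225), and the arrays of the 2 genotypes overlapped for both. Thus 2 of 4 keratins were called higher in Eed deficient cells, where 3.37% of all genes were, while the size of the difference ranged only from 1.31 to 1.54 over the 4. All 4 keratins had an unadjusted p under 0.05. The Krt8 call was lost without Ring1B deficient replicate 1 (adjusted p = 0.0736) or 3 (0.123), or Eed deficient replicate 2 (0.0722) or 3 (0.0922). The Krt19 call was lost in 16 of 23 alternative settings, with adjusted p up to 0.205 without Ring1B deficient replicate 3. All 4 were called without replicate 2 of all genotypes, at 1.66 for Krt8, 1.46 for Krt18, 1.43 for Krt7 and 1.66 for Krt19 (adjusted p from 0.0011 to 0.0376). With replicate number added to the limma fit all 4 were also called (adjusted p from 6.5e-05 to 5.7e-04), where 8.17% of all genes were called higher.

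Double deficient cells were compared with each single mutant to see what the second loss added. Against Ring1B deficient cells, Krt8 was higher by 1.93 log2 units (adjusted p = 0.0022), Krt19 by 1.73 (0.0099) and Krt18 by 1.64 (0.0244), and Krt7 was 1.58 higher without passing the test (0.0778). That is 3 of 4 keratins, against 12.7% of all genes in the same fit. With replicate number added to the limma fit it was 4 of 4, against 19.5% of all genes. Without replicate 2 of all genotypes it was also 4 of 4, but neither share applies to that setting. The Krt18 call was lost without Ring1B deficient replicate 1 (adjusted p = 0.0754) or 3 (0.102), or double deficient replicate 2 (0.0881) or 3 (0.0644). Krt7 passed without wild type replicate 1 (adjusted p = 0.0488) or 2 (0.0344), or Ring1B deficient replicate 2 (0.0367), and with only the 2 genotypes in the fit (0.0197).

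Against Eed deficient cells, 0 of 4 keratins were called by limma, and 0 had an unadjusted p under 0.05; 1.07% of all genes were called higher. The differences were 0.42 for Krt8 (95% interval -0.32 to 1.15), 0.33 for Krt18 (-0.66 to 1.31), 0.20 for Krt7 (-1.07 to 1.47) and 0.19 for Krt19 (-0.67 to 1.06). These intervals of the main fit leave room for a rise of more than 1 log2 unit in each gene. With replicate number added to the limma fit they were narrower. They were then 0.05 to 0.78 for Krt8, -0.04 to 0.69 for Krt18, -0.24 to 0.64 for Krt7 and -0.25 to 0.64 for Krt19. In that fit 0 of 4 were called, where 4.68% of all genes were called higher, and Krt8 had an unadjusted p of 0.028 (adjusted p = 0.141). Without double deficient replicate 2 the sign turned for Krt7 (-0.11) and Krt19 (-0.13), and without Eed deficient replicate 1 for Krt7 (-0.14).

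The interaction asked whether Ring1B loss changed the keratins by a different amount in Eed deficient than in wild type cells. It was -1.17 log2 units for Krt8 (95% interval -2.21 to -0.13, adjusted p = 0.243), -1.33 for Krt18 (-2.72 to 0.06, adjusted p = 0.325), -0.73 for Krt19 (-1.96 to 0.49) and -0.35 for Krt7 (-2.15 to 1.45). Limma called 0 of 4, where 1.19% of all genes were called negative, and Krt8 alone had an unadjusted p under 0.05. Leaving out replicate 2 of all genotypes gave 2 calls: Krt8 at -1.40 (adjusted p = 0.0245) and Krt18 at -1.40 (0.0373). Without wild type replicate 2 alone, Krt8 was called at -1.64 (adjusted p = 0.0429). With replicate number added to the limma fit, Krt8 (adjusted p = 0.0075) and Krt18 (0.0031) were called, where 5.14% of all genes were called negative.

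**Figure D2:**
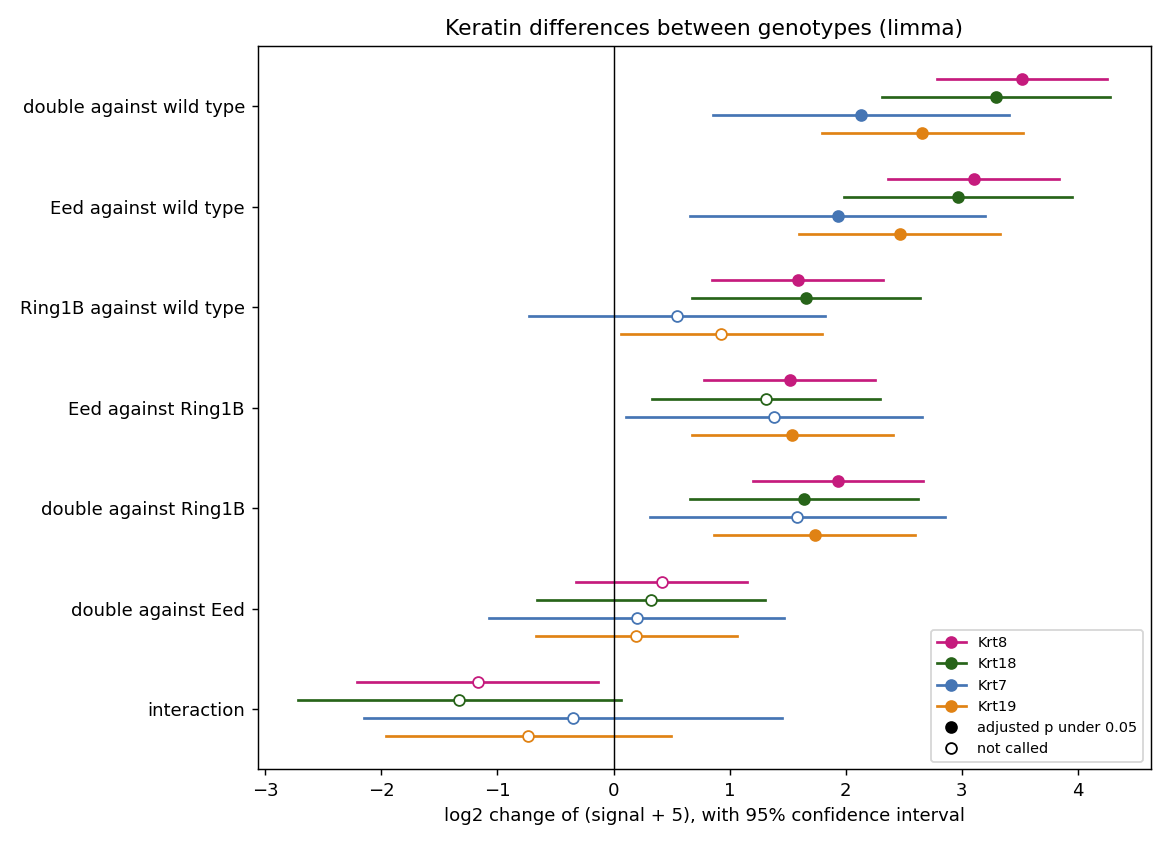
Log2 change of (signal + 5) of each keratin in 6 comparisons and the interaction, with 95% intervals of the limma fit. Filled points passed an adjusted p of 0.05. Points for Krt8 lie at 3.52, 3.11 and 1.59 in the 3 comparisons with wild type, and 0 points are filled for double against Eed deficient cells or for the interaction.

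Within genotypes the keratins varied together. The correlation of deviations from the genotype means over the 12 arrays was 0.98 between Krt8 and Krt18 and 0.95 between Krt7 and Krt18. It was lowest, at 0.84, between Krt7 and Krt19. All pairs share the arrays and their scaling, so these values describe the 12 arrays. The summed signal of 14 primitive and visceral endoderm markers was highest, and that of 6 ES cell markers lowest, in replicate 2 of each genotype. The endoderm sum was 11171 in replicate 2 against 9511 and 9978 in replicates 1 and 3 of double deficient cells, and 875 against 757 and 767 in wild type cells. Single endoderm markers were less uniform than the sum: replicate 2 held the highest signal for 7 of 14 in double deficient, 6 in Eed deficient, 10 in Ring1B deficient and 7 in wild type cells, and the lowest for 6 in double deficient, 4 in Eed deficient, 2 in Ring1B deficient and 4 in wild type cells. Of the 6 ES cell markers, replicate 2 held the lowest signal for 5 in double deficient, 5 in Eed deficient, 3 in Ring1B deficient and 3 in wild type cells. The part of these markers in the keratin deviations was not tested.

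**Figure D3:**
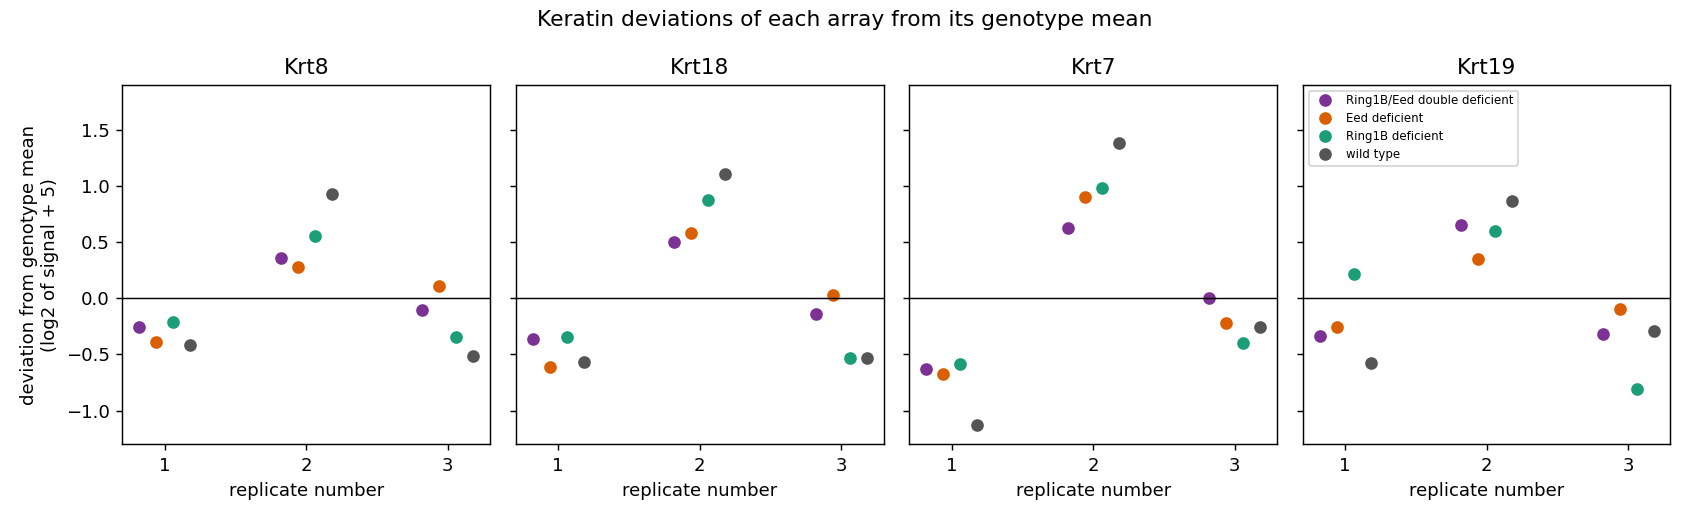
Deviation of each array from its genotype mean, in log2 units of (signal + 5), by replicate number for the 4 keratins, coloured by genotype. All replicate 2 points lie above 0 in all 4 panels.

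The genes whose log2 signal followed each keratin most closely over the 12 arrays were named as a description. For Krt8 they were Tinagl1, a basement membrane glycoprotein (r = 0.99), the tight junction claudin Cldn6 (0.99), the ceramidase Asah2, Tcim and the growth factor Igf2. For Krt18, Cldn6 came first (r = 0.99), then the focal adhesion protein Tes, the glycosyltransferase Galnt3, Dbndd2 and the LIM domain protein Csrp1. Igf2 averaged 1570 in double deficient, 1090 in Eed deficient, 214 in Ring1B deficient and 103 in wild type cells. For Krt7 the closest were glycogenin Gyg (r = 0.97), Itih5, Efhd2, the integrin Itgb1 and the glycine receptor subunit Glrb. For Krt19 they were the kinase Mapkapk2 (r = 0.98), Rab33b, Arf5, Chmp2b and the actin-binding Ablim1.

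The array held 44 other keratins, of which 43 were in the list of other keratins and 1, Krt88, was not. Krt88, a keratin gene near Krt7 that is named here after its values were seen, had signals of 47.4, 78.9 and 44.7 in double deficient, 29.3, 28.7 and 33.3 in Eed deficient, 20.4, 28.9 and 16.1 in Ring1B deficient, and 13.2, 14.8 and 11.2 in wild type cells. The arrays of each mutant lay above all wild type arrays. Krt88 was higher by 1.74 in double deficient (adjusted p = 1.2e-04) and by 0.97 in Eed deficient cells (0.0133), and its difference of 0.55 in Ring1B deficient cells was not called (0.208). Of the 43 listed keratins, 20 passed the filter, and 0 of 20 were called higher than wild type in any mutant by limma (2 in double deficient, 0 in Eed deficient and 1 in Ring1B deficient cells at an unadjusted p under 0.05). The median change of these 20 was 0.12 in double deficient, -0.01 in Eed deficient and -0.09 in Ring1B deficient cells. Without replicate 2 of all genotypes, 1 was called higher in double deficient cells. In Ring1B deficient cells 2 were called lower, where 2.5% of all genes were: Krt12, a keratin of the corneal epithelium, and Krt23. Leaving out Eed deficient replicate 3, or replicate 2 of all genotypes, gave 1 lower. Krt12 averaged 26.1 ± 3.61 in double deficient, 19.9 ± 1.46 in Eed deficient, 3.52 ± 0.42 in Ring1B deficient and 27.7 ± 8.61 in wild type cells (SD, n = 3 each; Ring1B against wild type -1.90, adjusted p = 2.1e-04). These Krt12 signals are near or below the array medians. The summed signal of the 43 listed keratins lay between 663 and 1031 over the 12 arrays, with overlapping ranges in all genotypes.

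Desmosomes are the adhesion plaques to which keratin filaments attach. Of 17 tested genes for desmosomes and keratin linkers, 4 were called higher in double deficient (19.5% of all genes), 3 in Eed deficient (10.8%) and 1 in Ring1B deficient cells (4.68%), so the double and Ring1B deficient shares lay near those of all genes. In double deficient cells 1 was called lower, against 11.4% of all genes. The median change was 0.31 in double deficient, 0.13 in Eed deficient and 0.05 in Ring1B deficient cells. Omitting replicate 2 of all genotypes gave 3 higher and 2 lower in double deficient cells. Dsc2, a desmosomal cadherin, had signals of 121, 169 and 103 in double deficient, 88.2, 173 and 105 in Eed deficient, 25.0, 49.2 and 18.2 in Ring1B deficient, and 13.8, 42.7 and 19.6 in wild type cells. Double and Eed deficient arrays lay above all others, and Dsc2 was higher by 2.25 in double deficient and by 2.12 in Eed deficient cells (adjusted p = 5.4e-04 and 0.0018).

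Desmoplakin, Dsp, which links keratins to the desmosome, was higher by 1.76 in double deficient and by 1.57 in Eed deficient cells, and its difference of 0.64 in Ring1B deficient cells was not called. Both genes exceeded their Ring1B deficient level in Eed deficient cells, Dsc2 by 1.86 (adjusted p = 0.0139) and Dsp by 0.93 (0.0465), and without Eed deficient replicate 3 the count was 1. The desmosomal cadherin Dsg2 was higher in all 3 mutants, by 1.66 in double deficient, 1.46 in Eed deficient and 1.05 in Ring1B deficient cells. The linker plectin, Plec, was called in double deficient cells (0.91). Its mean was 257 there and nearly the same, 255, in Eed deficient cells without a call, beside 138 in Ring1B deficient and 139 in wild type cells. Pinin, Pnn, found at desmosomes and in nuclear speckles, was lower in double deficient cells (-0.97). Genes for the plaque proteins Jup, Pkp2, Pkp3 and Pkp4 were not called.

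Of 16 tested genes for epithelial adhesion and tight junctions, 9 were called higher in double deficient (19.5% of all genes), 10 in Eed deficient (10.8%) and 3 in Ring1B deficient cells (4.68%), and 0 lower (at an unadjusted p under 0.05, 1 in double deficient cells and 0 in the single mutants). The median change was 0.74 in double deficient, 0.67 in Eed deficient and 0.23 in Ring1B deficient cells. Among the claudins, which seal tight junctions, in Eed deficient cells Cldn6 was higher by 1.79, Cldn7 by 1.42, Cldn4 by 1.40 and Cldn3 by 1.20. Cldn4 had signals of 280, 401 and 332 in double deficient, 304, 466 and 381 in Eed deficient, 148, 197 and 77.9 in Ring1B deficient, and 90.0, 214 and 143 in wild type cells. It exceeded the Ring1B deficient level by 1.49 in Eed deficient cells (adjusted p = 0.0219), while Ring1B deficient and wild type arrays overlapped.

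Ladinin, Lad1, a basement membrane anchoring protein, was higher in all 3 mutants, by 1.85 in double deficient, 2.03 in Eed deficient and 1.23 in Ring1B deficient cells. Occludin, Ocln, was higher in double deficient (0.90) and Eed deficient cells (0.83). E-cadherin, Cdh1, and Epcam, which ES cells already express, were not called in any mutant. Without Eed deficient replicate 3, counts of 8 in double deficient and 8 in Eed deficient cells were obtained, and the 2 calls of Eed against Ring1B deficient cells (Cldn4 and Lad1) became 0.

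**Figure D4:**
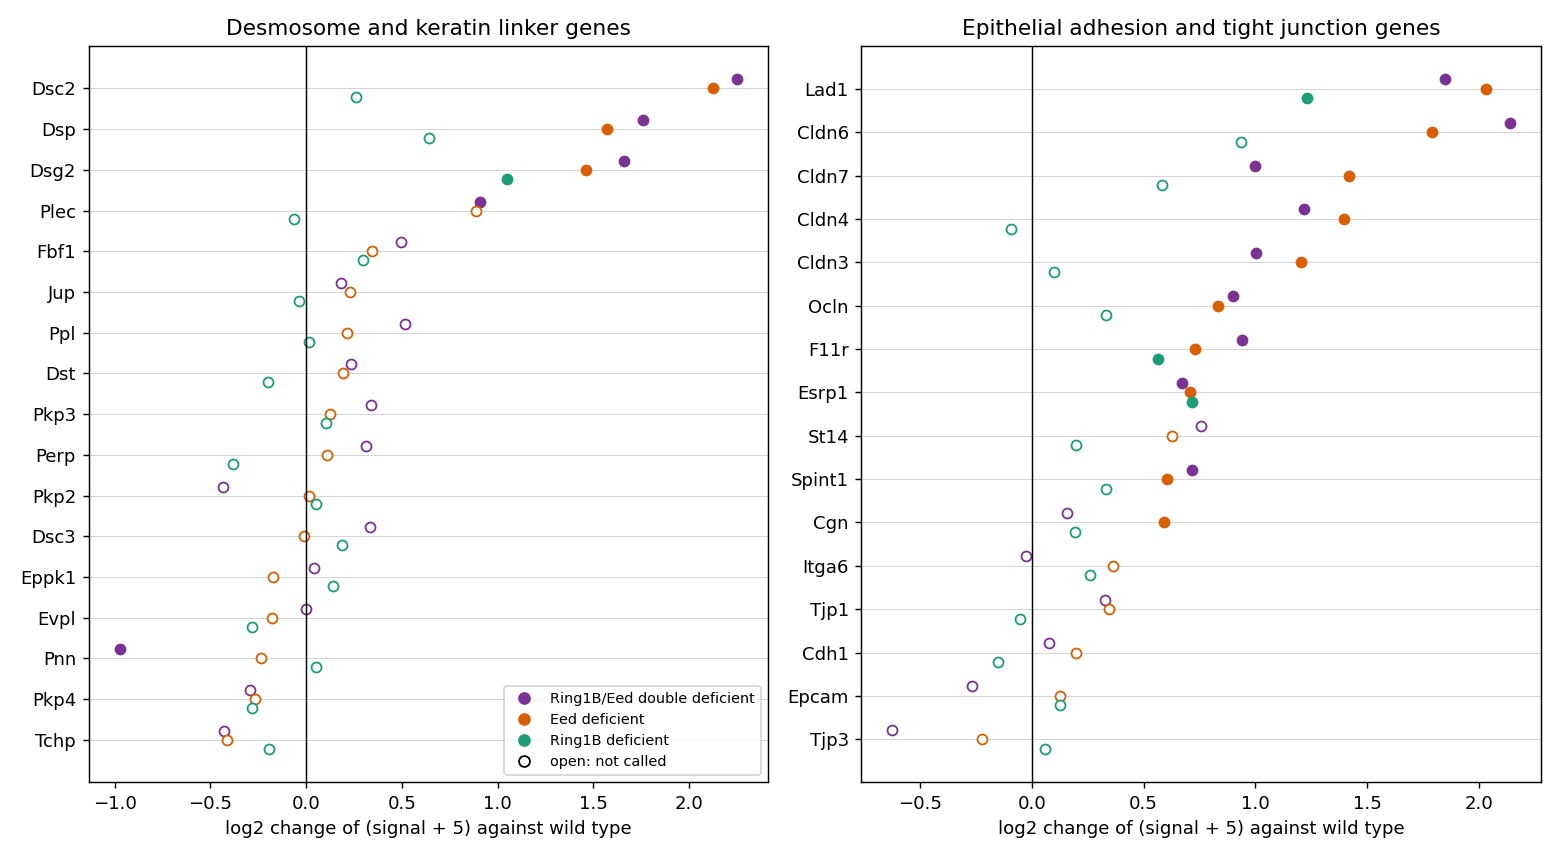
Log2 change of (signal + 5) against wild type for 17 desmosome and keratin linker genes (left) and 16 epithelial adhesion and tight junction genes (right) in double, Eed and Ring1B deficient cells. Filled points passed an adjusted p of 0.05. Dsc2, Dsp and Dsg2 head the left panel and Lad1 and Cldn6 the right.

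Transcription factors that act on the Krt8 and Krt18 genes or in epithelia were listed, and 20 were tested. Called higher were 9 in double deficient (19.5% of all genes), 7 in Eed deficient (10.8%) and 3 in Ring1B deficient cells (4.68%), and 1 was lower, Sp1 in double deficient cells (-0.35; 11.4% of all genes). Ets1, an ETS factor, had signals of 219, 253 and 236 in double deficient, 146, 148 and 154 in Eed deficient, 65.1, 55.1 and 50.6 in Ring1B deficient, and 23.7, 40.1 and 21.9 in wild type cells. The 4 genotypes did not overlap, and Ets1 exceeded the Ring1B deficient level by 1.32 in Eed deficient cells (adjusted p = 0.0020). The AP-1 subunit Fosl2 was higher by 2.53 in double deficient and by 1.76 in Eed deficient cells, with 0.10 in Ring1B deficient cells not called.

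Fosl2, Gata2 and Jun also exceeded their Ring1B deficient level in Eed deficient cells, by 1.66, 1.12 and 1.08. In that comparison 4 of the 20 factors were called higher (3.37% of all genes) and 0 lower. At an unadjusted p under 0.05, 8 were higher and 3 lower. Without replicate 2 of all genotypes, 1 was called lower. Tfap2a, an AP-2 factor, was among those running otherwise, at 0.72 in Eed deficient and 1.20 in Ring1B deficient cells. Both were called, with no call between them (-0.48, adjusted p = 0.239). Klf5 averaged 371 in double deficient, 332 in Eed deficient, 719 in Ring1B deficient and 496 in wild type cells. The ETS factor Elf3 was called in all 3 mutants, by 0.93 in double deficient, 0.58 in Eed deficient and 0.68 in Ring1B deficient cells. Without replicate 2 of all genotypes, 8 factors were called higher in double deficient, 5 in Eed deficient and 2 in Ring1B deficient cells.

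Markers of cell types that make simple keratins were read beside these genes. All 14 primitive and visceral endoderm markers were called higher in double deficient (19.5% of all genes) and likewise in Eed deficient cells (10.8%), and 13 of 14 in Ring1B deficient cells (4.68%). Their summed signal was 9511 to 11171 in double deficient, 5856 to 9122 in Eed deficient, 4289 to 5966 in Ring1B deficient and 757 to 875 in wild type cells. The endoderm factor Gata6 averaged 293 ± 18.9 in double deficient, 153 ± 23.8 in Eed deficient, 127 ± 22.8 in Ring1B deficient and 22.6 ± 4.14 in wild type cells (SD, n = 3 each). The marker sum ran in the same order of genotypes as the keratins, but not every marker did. Dab2 averaged 452 in double deficient, 533 in Eed deficient and 578 in Ring1B deficient cells. Cubn and Amn were also highest in Ring1B deficient cells, Ttr and Afp were highest in Eed deficient cells, and the remaining markers kept the keratin order. In Eed against Ring1B deficient cells 5 of 14 were called higher, where 3.37% of all genes were, and 1 of 14 without Eed deficient replicate 3. The part of these markers in the keratin levels was not tested.

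Of 6 tested trophoblast markers, 4 were called higher in double deficient (19.5% of all genes), 4 in Eed deficient (10.8%) and 2 in Ring1B deficient cells (4.68%). The sum of 9 trophoblast markers was 660 to 820 in double deficient, 544 to 888 in Eed deficient, 410 to 653 in Ring1B deficient and 359 to 405 in wild type cells. Tfap2c, already present in wild type cells, was the largest part of that sum. It averaged 348 in double deficient, 399 in Eed deficient, 288 in Ring1B deficient and 253 in wild type cells, and was 583 in Eed deficient replicate 1, which held the 888. Cdx2, which sets the trophectoderm fate, averaged 37.5 ± 5.09 in double deficient, 29.6 ± 10.3 in Eed deficient, 23.7 ± 3.36 in Ring1B deficient and 7.44 ± 7.45 in wild type cells. Plac1, a placental gene, averaged 142 ± 41.0 in double deficient, 55.6 ± 8.59 in Eed deficient, 22.1 ± 2.68 in Ring1B deficient and 14.3 ± 1.72 in wild type cells. The defining trophoblast genes Elf5, Gata3 and Tpbpa did not pass the filter, and each stayed at or under 20.7 in every array. The part of the trophoblast markers in the keratin levels was not tested.

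Fibroblast and feeder markers were called higher for 6 of 8 genes in double deficient (19.5% of all genes), 3 in Eed deficient (10.8%) and, by limma, 0 in Ring1B deficient cells (4.68%; 1 of the 8 at an unadjusted p under 0.05). Their sum was 1991 to 2510 in double deficient, 789 to 2209 in Eed deficient, 400 to 575 in Ring1B deficient and 479 to 547 in wild type cells, and Eed deficient replicate 3 alone held the 2209. Without that array Krt8, Krt18 and Krt19 were still called higher in Eed deficient cells than in wild type, and Krt7 was not (adjusted p = 0.0833). The calls of Eed against Ring1B deficient cells were then lost for Krt8 (adjusted p = 0.0922) and Krt19 (0.121). The part of the fibroblast and feeder markers in the keratin levels was not tested. Of 6 ES cell markers, 5 were lower in double deficient cells, where 11.4% of all genes were, 1 in Eed deficient cells (Pou5f1, -0.53; 4.55% of all genes) and 0 in Ring1B deficient cells (0 at an unadjusted p under 0.05). Their sum was 8926 to 11208 in double deficient, 10887 to 13863 in Eed deficient, 13087 to 14865 in Ring1B deficient and 14155 to 15495 in wild type cells, so all genotypes kept abundant ES cell transcripts. The 2 tested surface ectoderm and stratified epithelium markers and the 3 tested mesothelium markers gave 0 calls against wild type (at an unadjusted p under 0.05, 2 mesothelium markers in double deficient cells and 1 ectoderm marker in Eed deficient cells). The surface ectoderm sum was 93.9 to 155 in double deficient, 112 to 134 in Eed deficient, 69.2 to 112 in Ring1B deficient and 83.2 to 94.5 in wild type cells. All Eed deficient arrays thus lay above wild type in this low sum. The mesothelium sum was 117 to 127 in double deficient, 85.7 to 109 in Eed deficient, 64.7 to 96.6 in Ring1B deficient and 75.5 to 101 in wild type cells.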

How the data were processed

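The deposited intensity values were made by the authors with MAS5, per the submitters' processing notes; its version and settings are not given by the sources. Every array already had a trimmed mean of 100 (2% left off at each end), so no further normalization was applied. Of 45101 probe sets, 64 were controls, and 34945 of the rest had 1 symbol in the platform annotation, 932 had several and 9160 had none. A RefSeq gene table (GRCm38.p6) held 34741 of those with 1 symbol and changed 0 symbols. Probe sets above the array's 40th percentile in at least 3 of 12 arrays were kept (30030), and each gene was read by its brightest kept probe set (mean log2).

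Log2(signal + 5) was fitted with 1 mean per genotype over the 12 arrays (limma 3.58.1, R 4.3.3: lmFit, eBayes with an intensity trend), and p values were adjusted over 13985 genes by Benjamini-Hochberg. Adding 5 makes changes of low genes smaller than their signal ratios. The script was tested on simulated data. Replicates are biological per the labels, and the p values measure the spread between these arrays. The members and all gene lists were chosen with earlier results of these data known. Named genes were the 4 keratins, Rnf2 and Eed, the 5 genes closest to each keratin by Pearson r, and up to 6 called members of each list per contrast, with list members at the extremes. List genes that were not called, and neighbouring genes, were named after their values were seen. Lists were other keratins, other intermediate filaments, desmosome and keratin linkers, epithelial adhesion and tight junctions, transcription factors, and markers of trophoblast, endoderm, fibroblasts and feeders, surface ectoderm, mesothelium and ES cells. Alternatives were other normalizations, added values, filters, probe set rules and fits, the replicate block, and leaving out arrays.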

Additional observations from a re-analysis of the deposited data

How the results depend on the processing

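The 4 keratins were recomputed in each comparison under up to 23 alternative settings, which gave 640 values: 562 kept direction and side of the threshold, 53 kept direction but lost the call, 18 gained one and 7 changed sign. The calls of Krt8, Krt18 and Krt19 in double and Eed deficient cells against wild type held in all 23. The count of keratins higher in Ring1B deficient cells than in wild type (2) was 1 with no filter, with the mean of probe sets, with all probe sets fitted together, with only the 2 genotypes and with no intensity trend, and 0 to 2 when single arrays were left out. The count for Eed against Ring1B deficient cells (2) was 1 with median centring, quantile normalization, no filter, an added value of 1, the mean of probe sets, all probe sets fitted together, only the 2 genotypes and no intensity trend, and 4 without replicate 2 of all genotypes; leaving out single arrays gave 0 to 3. The interaction count (0) was 2 without replicate 2 of all genotypes and 0 to 1 when single arrays were left out. Signs changed when single arrays were left out. Krt7 in Ring1B deficient cells against wild type ranged from -0.018 (without wild type replicate 1) to 1.24. In double against Eed deficient cells, Krt7 ranged from -0.14 (without Eed deficient replicate 1; -0.11 without double deficient replicate 2) to 0.65, and Krt19 from -0.13 (without double deficient replicate 2) to 0.37. The Krt7 interaction ranged from -1.04 to 0.22 (without wild type replicate 1), with 0.15 when Ring1B deficient replicate 2 and 0.10 when Eed deficient replicate 2 was left out. Their causes were not tested. Same-numbered arrays deviated together in 13 of 18 pairs (r over 0.1), from -0.05 to 0.61. Their median r was 0.28, against -0.19 for arrays of different numbers. All 6 pairs of replicate 1 and all 6 of replicate 2 passed 0.1, but only 1 of 6 of replicate 3. The arrays were therefore not treated as paired in the main fit, although 27 of 36 array and genotype combinations were closest to their own number. With the replicate block, 4 keratins were higher in Eed than in Ring1B deficient cells (8.17% of all genes), 3 in Ring1B deficient cells than in wild type (9.12%), 4 in double than in Ring1B deficient cells (19.5%), 0 in double than in Eed deficient cells, and the interaction was negative for 2 (5.14% of all genes), Krt8 (adjusted p = 0.0075) and Krt18 (0.0031). Scaling moved the balance of calls over all genes: double deficient against wild type gave 2723 higher and 1588 lower, but 1691 and 3141 with median centring; Eed deficient against wild type gave 1509 and 637, but 1150 and 795; double against Ring1B deficient gave 1781 and 836, but 963 and 2225 (1301 and 955 with quantile normalization); double against Eed deficient gave 150 and 115, but 89 and 323 (149 and 189 with quantile normalization); the interaction gave 99 and 167, but 62 and 279. The median change of all genes in double deficient cells against wild type was -0.15 with median centring and 0.10 without it. The low signal of Krt7 in wild type cells limits its comparisons.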

Other observations

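Among 14 tested genes of other intermediate filaments, 3 were called higher (19.5% of all genes) and 1 lower (11.4%) in double deficient, 1 higher in Eed deficient (10.8%) and 0 in Ring1B deficient cells by limma (1 higher and 3 lower at an unadjusted p under 0.05), shares near those of all genes. Neurofilament Nefm had signals of 76.0, 72.9 and 106 in double deficient, 17.9, 12.7 and 23.8 in Eed deficient, 19.4, 15.1 and 23.8 in Ring1B deficient, and 14.9, 20.3 and 13.8 in wild type cells (double against wild type 2.07, adjusted p = 2.9e-05). Only the double deficient arrays stood apart, unlike the keratins, which were high in Eed deficient cells as well. Lamin A, Lmna, was higher by 1.38 in double deficient and by 0.89 in Eed deficient cells. Vimentin, Vim, the filament of mesenchymal cells, had signals of 2224, 2115 and 2150 in double deficient, 1160, 978 and 2250 in Eed deficient, 995, 621 and 799 in Ring1B deficient, and 1265, 1114 and 1490 in wild type cells. Its high Eed deficient array, replicate 3, is the one with the high fibroblast marker sum, and that sum's part in Vim was not tested. Gfap was lower in double deficient cells (-0.88, adjusted p = 0.0470).

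The keratin genes lie in 2 clusters, and the genes around the members in RefSeq order (GRCm38.p6), named for their position, were set against wild type. Of 24 such genes 12 were tested. In double deficient cells 4 were called in either direction, where 19.5% of all genes were higher and 11.4% lower. Eed deficient cells had 2 calls (10.8% of all genes higher and 4.55% lower) and Ring1B deficient cells 0 (4.68% and 2.5%). These counts lay near the shares of all genes. Krt8 and Krt18 are neighbours. On one side of them Krt79 and Krt4 were not called against wild type, and Krt78 and Krt76 did not pass the filter. On the other side Eif4b differed by -0.51 in double deficient, -0.33 in Eed deficient and -0.025 in Ring1B deficient cells, called in the double deficient cells only. Spryd3, the third gene on that side, was higher by 0.59 in double deficient cells (adjusted p = 0.0098). Igfbp6, the fourth gene on that side, was higher by 0.91 in double deficient and by 0.76 in Eed deficient cells (adjusted p = 0.0045 and 0.0233). Near Krt7, Krt88 was called in double and Eed deficient cells, as given above, and Krt80 and Krt81 were not called. Beside Krt19, Krt15, Krt13 and Krt14 did not pass the filter, and Krt16 and Krt17 were not called.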
